A study of Homo sapiens with 6 samples.

Results

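Wnt ligands, their receptors and the feedback genes of the pathway were followed in A431, an established human line from an epidermoid (squamous) carcinoma that carries an unusually large amount of the receptor for EGF, epidermal growth factor (EGFR), on 6 arrays. Members were the genes whose symbol names a Wnt ligand (WNT), a Frizzled receptor (FZD), a Dickkopf (DKK) or secreted Frizzled-related (SFRP) inhibitor, or was LRP5, LRP6, AXIN1, AXIN2, LEF1, TCF7, TCF7L1, TCF7L2, RNF43, NKD1, NKD2, ZNRF3, WIF1, LGR4 or LGR5. The rule matched 49 of the 17687 genes with a symbol on the array, each by a single probe set, and TCF7 was not among them. All cells were grown with 10% fetal bovine serum and then starved for 24 h, in a medium that the labels do not describe. The control group had no treatment, the EGF group received EGF at 100 ng/ml, and the EGF plus gefitinib group received that dose of EGF with gefitinib, an inhibitor of the EGFR kinase, at 10 µM. Harvest was 30 min after treatment, and the labels do not say when gefitinib was given relative to EGF. Each group held 2 arrays that the labels call biological replicates. No label states separate cultures, and p-values therefore measure the spread among these arrays alone, part or all of which could be technical.

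Wnt proteins are secreted lipid-modified ligands that bind Frizzled receptors together with the co-receptors LRP5 and LRP6. In the canonical branch this stops a destruction complex built on AXIN from removing beta-catenin, which then binds factors of the TCF and LEF family on target genes. Dickkopf and SFRP proteins block the ligand or its co-receptor outside the cell, RNF43 and ZNRF3 remove Frizzled from the surface, and R-spondins acting through LGR receptors hold those ligases back. In skin the pathway is best known for hair follicle formation and stem cell renewal, and several ligands, WNT4 and WNT10A among them, are made by the epidermis itself.

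EGF lowered the RNA of 3 ligands (WNT4, WNT10A and WNT7B), 2 receptors (FZD1 and FZD7) and 2 nuclear factors (TCF7L1 and TCF7L2), and raised the ligand WNT7A and the secreted inhibitor DKK1. Of these calls, those of WNT4, WNT10A and TCF7L1 were kept in 6 of 6 fits that left out an array, DKK1 in 4, WNT7A and FZD7 in 3, FZD1 and TCF7L2 in 2 and WNT7B in 1. In each comparison 2 of the 6 such fits left out an array of the group not compared. Only the other 4 show what a call owes to a single array of the groups compared. The falls of FZD1 and TCF7L2 were lost whichever of the 4 control and EGF arrays was left out. FZD7 did not exceed the level of the negative controls on any of these 4 arrays, and FZD1 did on 1 of them. With gefitinib beside EGF these genes fell into several patterns. TCF7L1, TCF7L2, WNT7B and FZD7 were higher than with EGF alone, and WNT7A was lower than with EGF alone. WNT4 and WNT10A were below the control in this group too, and DKK1 was above it. DKK3, another Dickkopf family member, was higher with EGF plus gefitinib than in either other group. LGR4, an R-spondin receptor, was higher with EGF plus gefitinib than with EGF alone. Against EGF alone, the calls of TCF7L1, FZD7, WNT7A and DKK3 were kept in 6 of 6 fits that left out an array. The WNT7B call was kept in 3, TCF7L2 in 2 and LGR4 in 0. Against the control, the calls of WNT10A, DKK1 and DKK3 were lost whichever of the 4 arrays compared was left out. That of WNT4 was lost without control 1, control 2 or EGF plus gefitinib 2. The other 38 members were called in no comparison.

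Values are log2 expression values as the authors deposited them, and a difference is between group means on that scale, given with the standard error of the limma fit over all 6 arrays. A gene was called at an adjusted p under 0.05, with Benjamini-Hochberg adjustment over 21448 transcript probe sets. The background limit of an array was the level that 95% of its negative controls did not exceed, 7.14 to 7.65 over the 6 arrays. Where the dimmer group lay at or below that limit on both arrays, a fold is a lower bound and written "at least". Levels of different genes are not compared, since each probe set has its own response. On bulk RNA, fewer cells that express a gene and less RNA per cell cannot be told apart.

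On the 6 arrays 38.4% to 42.1% of all transcript probe sets exceeded the limit. Over probe sets, which are not independent replicates of each other, arrays of a group correlated at 0.991 to 0.994. Arrays of different groups correlated at 0.973 to 0.987. EGFR, the target of both agents, measured 14.42 and 14.38 on the control arrays, 14.44 and 14.44 with EGF, and 15.26 and 15.36 with EGF plus gefitinib, 0.87 ± 0.17 above EGF alone (limma, adjusted p = 0.0125, n = 2 per group), a call kept in 3 of 6 fits that left out an array. The 7 measured markers of the epidermoid line, KRT5, KRT14 and CDH1 among them, exceeded the limit on all arrays. Of the markers of other cell types, all 4 leukocyte markers, 3 of 4 endothelial and 4 of 6 fibroblast markers were at or below the limit on every array. LUM, a fibroblast proteoglycan, was above it on all 6.

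The promoters of 4 members that stand for the main patterns are shown. WNT4 was lower than the control both with EGF and with EGF plus gefitinib. TCF7L1 was lower with EGF than in the control and higher with EGF plus gefitinib than with EGF alone. WNT7A was higher with EGF than in the control and lower with EGF plus gefitinib than with EGF alone. DKK1 was higher than the control in both groups with EGF. Each promoter shown is the 250 bases before the transcription start, from RefSeq on GRCh38.p14, read 5′ to 3′ on the strand of the gene. Capitals mark matches to any of 6 motifs searched on both strands, the AP-1 site TGANTCA, the cyclic AMP response element TGACGTCA, the TCF/LEF core CTTTGAT, the FOXO site GTAAACA, the EGR1 site GCGNGGGCG and the TATA box TATAAA, none of which overlapped another here. The positions are chr1:22143098-22143347 (minus strand) for WNT4, chr2:85133142-85133391 (plus strand) for TCF7L1, chr3:13880072-13880321 (minus strand) for WNT7A and chr10:52314031-52314280 (plus strand) for DKK1.
WNT4: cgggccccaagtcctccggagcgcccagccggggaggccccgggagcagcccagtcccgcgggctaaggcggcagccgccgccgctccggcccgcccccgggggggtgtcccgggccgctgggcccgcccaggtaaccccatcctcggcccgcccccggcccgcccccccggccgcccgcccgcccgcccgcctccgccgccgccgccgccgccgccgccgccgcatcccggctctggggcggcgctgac
TCF7L1: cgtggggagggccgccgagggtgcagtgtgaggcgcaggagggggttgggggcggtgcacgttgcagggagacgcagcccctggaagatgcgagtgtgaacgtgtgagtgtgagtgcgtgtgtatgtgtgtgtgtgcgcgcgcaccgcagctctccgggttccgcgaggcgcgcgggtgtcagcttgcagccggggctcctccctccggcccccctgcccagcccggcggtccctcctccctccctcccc
WNT7A: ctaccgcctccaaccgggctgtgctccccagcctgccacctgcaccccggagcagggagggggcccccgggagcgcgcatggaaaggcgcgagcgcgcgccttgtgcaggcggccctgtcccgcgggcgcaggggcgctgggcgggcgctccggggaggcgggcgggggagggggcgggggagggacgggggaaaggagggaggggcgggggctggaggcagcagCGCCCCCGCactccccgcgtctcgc
DKK1: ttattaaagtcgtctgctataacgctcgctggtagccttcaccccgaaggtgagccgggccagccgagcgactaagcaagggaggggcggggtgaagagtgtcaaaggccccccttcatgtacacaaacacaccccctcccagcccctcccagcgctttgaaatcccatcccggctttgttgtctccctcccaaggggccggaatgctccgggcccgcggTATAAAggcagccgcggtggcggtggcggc
The WNT4 and TCF7L1 windows held no match, WNT7A held an EGR1 match on the opposite strand from 25 to 17 bases before the start, and DKK1 a TATA box from 30 to 25 bases before it. Of all 35116 promoter windows of this length, 8.41% held the EGR1 match, 10.7% the TATA box, 6.57% the AP-1 site, 1.65% the cyclic AMP response element, 2.26% the TCF/LEF core and 2.98% the FOXO site. The table held 38 windows for 32 of the 49 members. Among these members 9 had the EGR1 match, 1 the AP-1 site (RNF43), 1 the FOXO site (WNT5B) and 2 the TATA box. The exact TCF/LEF string CTTTGAT and the cyclic AMP response element were found in 0. Strings that differ from a motif by a letter, such as ctttgaa in the DKK1 window, were not counted. G and C made up 86.8% of the WNT4 window, 72.0% of TCF7L1, 80.4% of WNT7A and 62.8% of DKK1, beside a median of 68.4% over the members' windows and 58.0% over all. A match is a description of these letters and not a site shown to be bound.

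Of the 49 members, 14 exceeded the limit on both arrays of at least 1 group, 10 of them on all 6 arrays, and 32 were at or below it on every array. Among the 18 ligands 4 exceeded it in a group (WNT4, WNT10A, WNT7A and WNT7B), as did 4 of 11 receptors and co-receptors (FZD3, FZD6, FZD10 and LRP5), 2 of 9 secreted inhibitors (DKK1 and DKK3), 1 of 4 R-spondin receptors and receptor-removing ligases (LGR4), 1 of 4 cytoplasmic inhibitors (AXIN1) and 2 of 3 nuclear factors (TCF7L1 and TCF7L2). The feedback and target genes most used as readouts of the canonical branch, AXIN2, LGR5, NKD1, NKD2, RNF43, ZNRF3 and LEF1, were at or below the limit on all 6 arrays. Their values ran from 3.59 to 7.21 and 0 of the 7 were called by limma in any comparison. At or below the limit an array gives only an upper bound, which does not show that a transcript was absent.

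**Figure D1:**
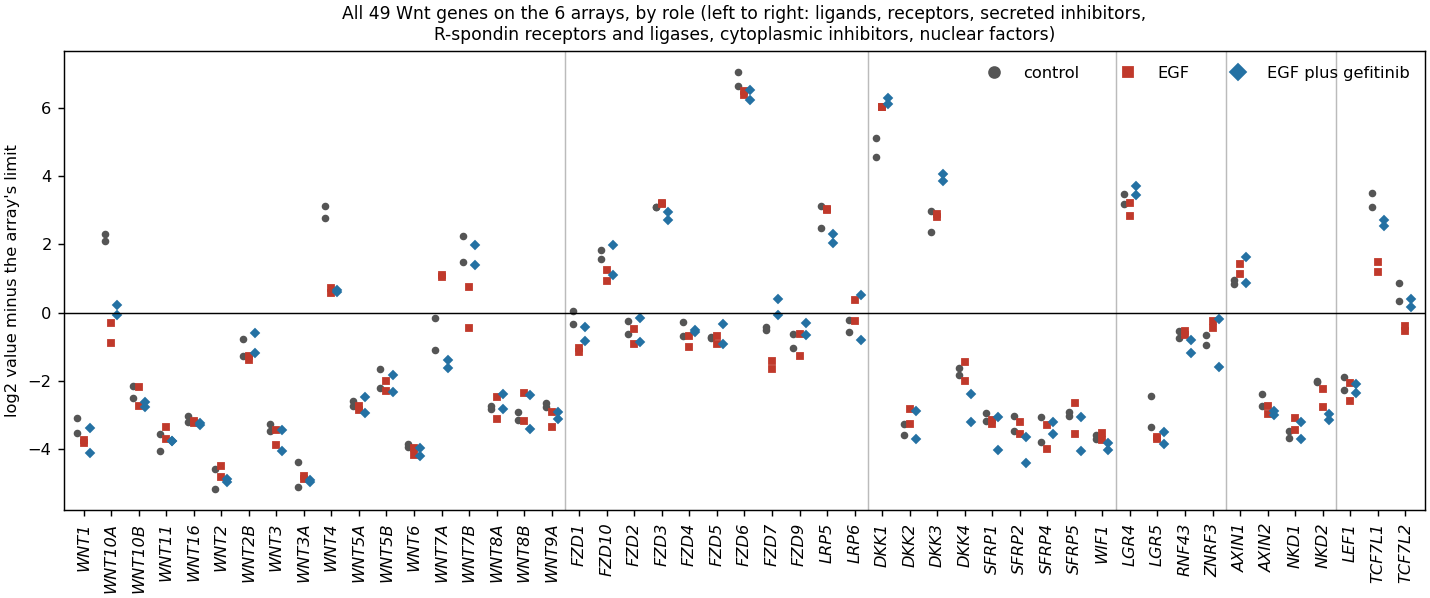
Log2 value of each of the 49 Wnt genes minus the background limit of the same array, for the 2 arrays each of control (circles), EGF (squares) and EGF plus gefitinib (diamonds), with genes grouped by role and 0 marking the limit. Most ligands, all SFRP genes, WIF1 and the feedback genes AXIN2, NKD1, NKD2, LGR5 and LEF1 lie below 0 in every group, while FZD6, DKK1, DKK3, FZD3, LRP5 and LGR4 lie above 0 on all arrays.

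For EGF against control, 9 of the 49 members were called, 2 higher and 7 lower, beside 11.9% of all probe sets tested (6.61% higher and 5.3% lower). The members' share was 18.4%. Their median difference was −0.06 and the median absolute difference 0.29, against −0.03 and 0.29 over all probe sets. When any 1 of the 4 arrays compared was left out, 0 or 1 members were called higher and 3 or 4 lower, while calls over all probe sets went from 2554 to between 726 and 839. With each array centred on the median of the probe sets above the background limit, the split over all probe sets turned from 1417 higher and 1137 lower to 1164 higher and 1453 lower. Between EGF plus gefitinib and EGF, 7 members were called, 6 higher and 1 lower (14.3% of the members), beside 18.7% of all probe sets (8.86% higher and 9.81% lower). The medians were 0.08 and 0.27 for the members, against 0.05 and 0.33 over all. Between EGF plus gefitinib and control, 4 were called, 2 higher and 2 lower (8.16%), beside 3.89% of all probe sets (2.19% higher and 1.7% lower), with medians of 0.00 and 0.29 against 0.01 and 0.27. Over all probe sets this comparison had 834 calls, and 0 to 247 when an array was left out (0 without control 1 or EGF plus gefitinib 2, with limma). Each group serves in more than 1 comparison, so the values of a gene in these comparisons are not independent of each other.

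WNT4, a ligand of kidney, gonad and epidermis, measured 10.27 and 10.22 on the control arrays, 8.03 and 8.0 with EGF, and 8.26 and 7.95 with EGF plus gefitinib. Both groups with EGF lay below the controls with no overlap, and they overlapped each other. The fall with EGF was 2.23 ± 0.19 on the log2 scale, 4.69-fold (limma, adjusted p = 0.0012, n = 2 per group), and it was called without any single array. With EGF plus gefitinib WNT4 was 4.41-fold below the control (−2.14 ± 0.19, limma adjusted p = 0.0069), which limma no longer called without control 1 (−2.11), control 2 (−2.17) or EGF plus gefitinib 2 (−1.99). Against EGF alone it differed by 0.09 ± 0.19 (limma, adjusted p = 0.795). The 95% confidence interval ran from −0.35 to 0.52, so a difference above 0.52 lies outside it.

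WNT10A, a ligand of teeth, hair and other skin appendages, measured 9.24 and 9.75 in the control, 6.58 and 6.98 with EGF, and 7.58 and 7.52 with EGF plus gefitinib. The 3 groups did not overlap. Both EGF arrays were at or below the limit, and with gefitinib 1 of 2 arrays exceeded it. WNT10A fell at least 4.35-fold with EGF (−2.72 ± 0.24, limma adjusted p = 0.00136), a call kept without any single array. It was 3.85-fold below the control with EGF plus gefitinib (−1.95 ± 0.24, adjusted p = 0.0143), a call that was lost without control 1 (−2.20), control 2 (−1.69), EGF plus gefitinib 1 (−1.98) or EGF plus gefitinib 2 (−1.91). Against EGF alone the difference of 0.77 ± 0.24 was not called (adjusted p = 0.0648). It was called after a filter on dim probe sets (adjusted p = 0.0166), with arrays centred on the probe sets above the limit (0.85, adjusted p = 0.0465) and with a trend and robust prior (adjusted p = 0.0279).

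WNT7B, a canonical ligand of epithelia, measured 9.39 and 8.93 in the control, 7.01 and 8.04 with EGF, and 9.04 and 9.26 with EGF plus gefitinib. The EGF arrays lay apart from each other, by more than either other pair, and 1 of them was above the limit. WNT7B fell 3.10-fold with EGF (−1.63 ± 0.35, limma adjusted p = 0.0256) and rose 3.08-fold with gefitinib added (1.62 ± 0.35, adjusted p = 0.018). The fall was called in 1 of 6 fits that left out an array, the one without EGF 2, and ranged from −2.15 to −1.12 over them. It was not called on the control and EGF arrays alone (adjusted p = 0.0505). The rise was lost without EGF 1 (1.10), EGF plus gefitinib 1 (1.73) or EGF plus gefitinib 2 (1.51). EGF plus gefitinib overlapped the control, from which it differed by −0.01 ± 0.35 (adjusted p = 0.99, 95% confidence interval −0.83 to 0.80).

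WNT7A, a close relative of WNT7B that patterns the limb, moved the other way. It measured 6.03 and 7.27 in the control, 8.5 and 8.39 with EGF, and 6.04 and 5.89 with EGF plus gefitinib. Only the EGF arrays exceeded the limit. WNT7A was at least 2.23-fold higher with EGF than in the control (1.80 ± 0.37, limma adjusted p = 0.0232) and at least 1.97-fold lower with gefitinib than with EGF alone (−2.48 ± 0.37, adjusted p = 0.00458). The fall was called without any single array, but the rise was lost without control 1 (1.18), EGF 1 (1.74) or EGF 2 (1.85). EGF plus gefitinib and control, both below the limit, overlapped, with a difference of −0.68 ± 0.37 (adjusted p = 0.349).

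The other 14 ligands, from WNT1 to WNT9A, were at or below the limit on all arrays, with values from 2.27 to 6.69, and 0 were called. They include WNT5A, the best known ligand of the non-canonical branch, and WNT3A, a classic canonical ligand.

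Among the Frizzled receptors, FZD7 measured 6.64 and 7.01 in the control, 5.80 and 5.87 with EGF, and 7.58 and 7.68 with EGF plus gefitinib. The 3 groups did not overlap, but only EGF plus gefitinib 2 was above the limit. FZD7 was higher with gefitinib than with EGF alone (1.79 ± 0.20, limma adjusted p = 0.00146), a call kept without any single array. A fold is left out here, since EGF plus gefitinib 1 lay below its limit. The fitted fall with EGF (−0.98 ± 0.20, adjusted p = 0.0206) has both groups inside the range of the negative controls, so no fold is given, and it was lost without control 2 (−0.80), EGF 1 (−0.95) or EGF 2 (−1.02). Against the control, EGF plus gefitinib differed by 0.81 ± 0.20 (adjusted p = 0.0702), called only with the trend and robust prior (adjusted p = 0.0473).

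FZD1, a receptor of the same subfamily as FZD7, measured 7.20 and 7.12 in the control, 6.32 and 6.26 with EGF, and 6.82 and 6.88 with EGF plus gefitinib. The groups did not overlap, and only control 1 was above the limit. The fall with EGF of 0.87 ± 0.17 (limma, adjusted p = 0.0192) was lost without control 1 (−0.83), control 2 (−0.91), EGF 1 (−0.90) or EGF 2 (−0.84). The difference of 0.56 ± 0.17 between EGF plus gefitinib and EGF was not called (adjusted p = 0.0605), except with arrays centred on the probe sets above the limit (0.64, adjusted p = 0.0383).

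FZD6, a Frizzled that orients hairs in skin, measured 14.19 and 14.07 in the control, 13.83 and 13.78 with EGF, and 13.88 and 13.81 with EGF plus gefitinib. The controls were above both other groups, by 0.32 and 0.28, but neither difference was called (limma, adjusted p = 0.285 and 0.393), other than the first with the trend and robust prior (adjusted p = 0.0267). FZD3, another Frizzled of planar polarity, measured 10.22 and 10.52, 10.68 and 10.46, and 10.37 and 10.25 in the same order. Control and EGF overlapped, and FZD3 was called in no comparison. FZD10 measured 8.96 and 9.01 in the control, 8.38 and 8.54 with EGF, and 8.75 and 9.27 with EGF plus gefitinib. Its EGF arrays were below all others, and the differences of −0.53 ± 0.22 against control (adjusted p = 0.179) and 0.55 ± 0.22 with gefitinib (adjusted p = 0.133) were not called, the second only after the filter on dim probe sets (adjusted p = 0.0397). LRP5, the co-receptor, measured 10.27 and 9.92 in the control, 10.47 and 10.32 with EGF, and 9.94 and 9.33 with EGF plus gefitinib. EGF plus gefitinib lay below EGF without overlap, by 0.76 ± 0.25 (adjusted p = 0.0812, not called). That difference was called after the filter (adjusted p = 0.0233), with the trend and robust prior (adjusted p = 0.0121) and without EGF plus gefitinib 1 (−1.06, adjusted p = 0.0447). The remaining 5 receptors, FZD2, FZD4, FZD5, FZD9 and LRP6, ran from 6.10 to 7.81 and were not called. Of these LRP6 exceeded the limit on 1 array each of EGF and EGF plus gefitinib, and the others on none.

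**Figure D2:**
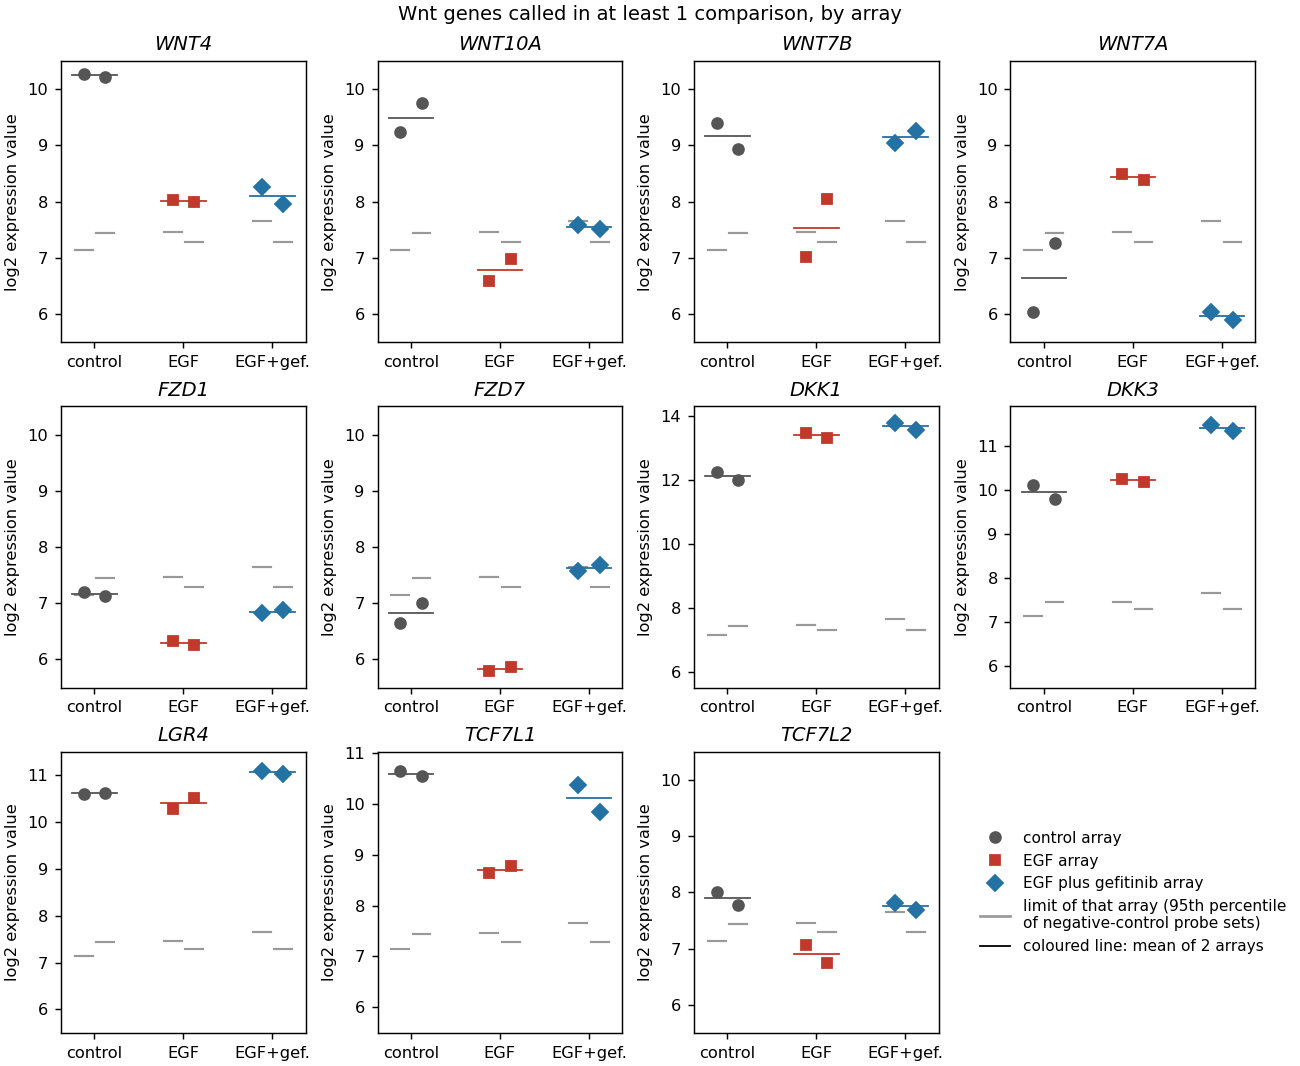
Log2 expression value (y axis) of the 11 Wnt genes called in at least 1 comparison, with a point for each array of control, EGF and EGF plus gefitinib, a coloured line at the mean of 2 arrays and a grey line at the background limit of each array. WNT4 is near 8 in both groups with EGF and above 10 in the control, TCF7L1 is lowest in the EGF group, and DKK3 is highest with EGF plus gefitinib.

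DKK1, which binds LRP5 and LRP6 and blocks canonical signalling, measured 12.25 and 11.99 in the control, 13.47 and 13.32 with EGF, and 13.76 and 13.57 with EGF plus gefitinib. The controls were below both other groups, and the EGF plus gefitinib arrays were the highest. DKK1 rose 2.43-fold with EGF (1.28 ± 0.19, limma adjusted p = 0.00771), a call lost without control 2 (1.15) or EGF 1 (1.2). With EGF plus gefitinib it was 2.92-fold above the control (1.55 ± 0.19, adjusted p = 0.0144), lost without control 1 (1.68), control 2 (1.42), EGF plus gefitinib 1 (1.45) or EGF plus gefitinib 2 (1.64). Against EGF alone it differed by 0.27 ± 0.19 (adjusted p = 0.396), with a 95% confidence interval from −0.18 to 0.71.

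DKK3, a divergent member of the family, measured 10.12 and 9.80 in the control, 10.25 and 10.19 with EGF, and 11.49 and 11.34 with EGF plus gefitinib. The EGF plus gefitinib arrays were above all others by more than the spread of any group. DKK3 was 2.29-fold higher than with EGF alone (1.19 ± 0.19, limma adjusted p = 0.0061), a call kept without any single array, and 2.74-fold higher than in the control (1.45 ± 0.19, adjusted p = 0.0166), a call lost without control 1 (1.62), control 2 (1.29), EGF plus gefitinib 1 (1.37) or EGF plus gefitinib 2 (1.53). EGF alone differed from the control by 0.26 ± 0.19 (adjusted p = 0.458). The other 7 secreted inhibitors (DKK2, DKK4, SFRP1, SFRP2, SFRP4, SFRP5 and WIF1) were at or below the limit on every array, from 3.25 to 6.01, and were not called.

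LGR4, the R-spondin receptor found in many epithelia, measured 10.60 and 10.61 in the control, 10.28 and 10.51 with EGF, and 11.09 and 11.01 with EGF plus gefitinib. EGF plus gefitinib lay above both other groups. The rise over EGF alone, 1.58-fold (0.66 ± 0.18, limma adjusted p = 0.0416), rested on all 6 arrays, since it was called in 0 of 6 fits that left out an array (0.54 to 0.78), nor on the EGF and EGF plus gefitinib arrays alone (adjusted p = 0.0727) or with the replicate number as a block (adjusted p = 0.0669). AXIN1, the scaffold of the destruction complex, measured 7.98 and 8.38 in the control, 8.60 and 8.72 with EGF, and 8.52 and 8.93 with EGF plus gefitinib. The controls were the lowest, but AXIN1 was called in no comparison, with 0.48 ± 0.23 for EGF against control (adjusted p = 0.233).

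TCF7L1, a TCF factor that acts mainly as a repressor of Wnt targets and is known from the skin stem cells of the hair follicle, measured 10.64 and 10.54 in the control, 8.64 and 8.77 with EGF, and 10.37 and 9.83 with EGF plus gefitinib. The groups did not overlap, and the EGF arrays were far below the others. TCF7L1 fell 3.70-fold with EGF (−1.89 ± 0.22, limma adjusted p = 0.00346) and was 2.63-fold higher with EGF plus gefitinib than with EGF alone (1.40 ± 0.22, adjusted p = 0.00582). Both calls were kept without any single array. EGF plus gefitinib differed from the control by −0.49 ± 0.22 (adjusted p = 0.265, 95% confidence interval −1.01 to 0.03).

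TCF7L2, the main TCF factor of many epithelia, measured 8.01 and 7.78 in the control, 7.06 and 6.75 with EGF, and 7.81 and 7.69 with EGF plus gefitinib. The EGF arrays were below all others and below the limit, and the remaining groups overlapped. TCF7L2 was at least 1.44-fold lower with EGF than in the control (−0.99 ± 0.20, limma adjusted p = 0.0207) and at least 1.30-fold higher with gefitinib than with EGF alone (0.85 ± 0.20, adjusted p = 0.0249). The fall was lost without control 1 (−0.88), control 2 (−1.11), EGF 1 (−1.15) or EGF 2 (−0.84), and the rise without EGF 1 (1.0), EGF 2 (0.69), EGF plus gefitinib 1 (0.78) or EGF plus gefitinib 2 (0.91). LEF1, the family member most often switched on in hair precursor cells, was at or below the limit on all arrays.

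**Figure D3:**
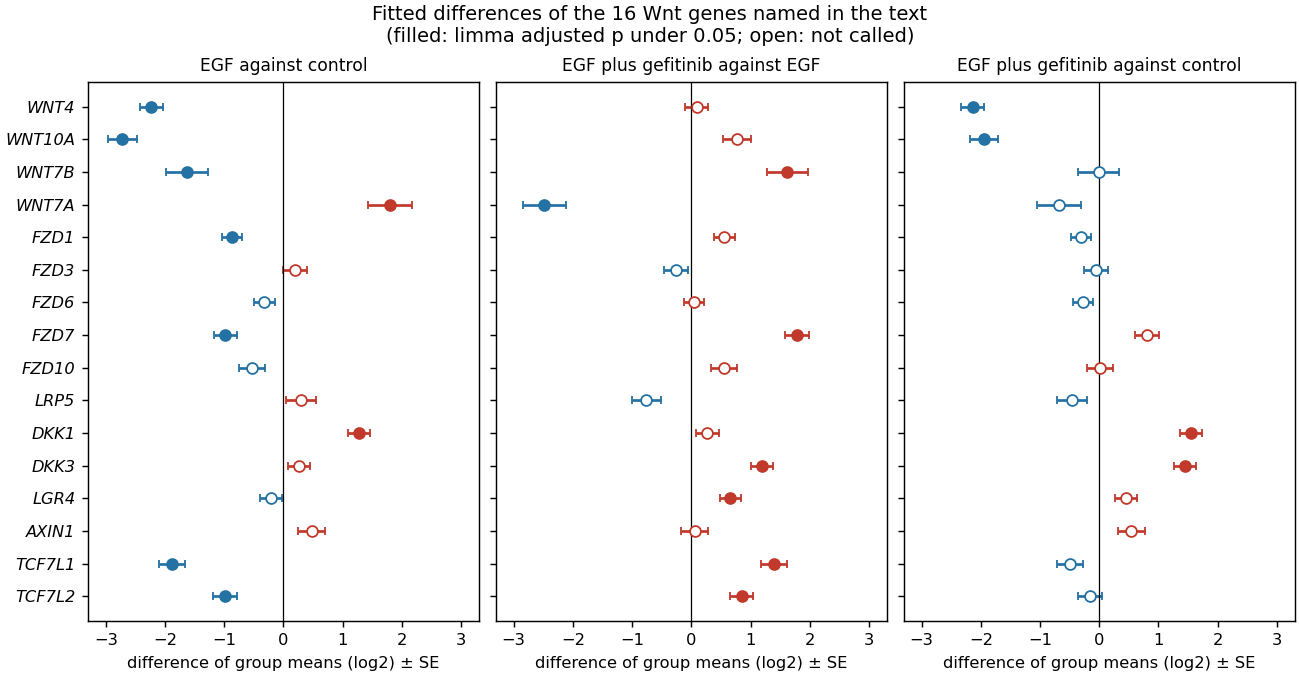
Difference of group means on the log2 scale with the standard error of the limma fit, for the 16 Wnt genes that were called or exceeded the background limit in a group, in each of the 3 comparisons; filled points were called. WNT4 and WNT10A are to the left in the first and the last panel, TCF7L1, TCF7L2, WNT7B and FZD7 are to the left in the first and to the right in the second, and DKK1 is to the right in the first and the last.

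LUM, DCN and CDH5 were the only markers of other cell types called in any comparison. Over all probe sets 5.3% were called lower with EGF and 8.86% higher with gefitinib added. Of 6 fibroblast markers LUM and DCN were lower with EGF, in 2 and 4 of 6 fits that left out an array, and the summed level of the list, on a log2 scale, was 9.99 to 10.10 in the control, 8.91 to 9.25 with EGF and 9.08 to 9.51 with EGF plus gefitinib. DCN, like COL1A1, THY1 and PDGFRB, was at or below the limit on every array. COL1A2 exceeded it on both control arrays and was not called. Of 4 endothelial markers CDH5 was lower with EGF and higher with gefitinib added, with a summed level of 7.49 to 7.84, 6.32 to 6.63 and 8.01 to 8.13 in the same order, while PECAM1, VWF and KDR were at or below the limit throughout. The 4 leukocyte markers were not called and summed to 6.99 to 7.28, 6.96 to 7.15 and 6.77 to 6.79. LUM had the highest value of the fibroblast sum on every array, and CDH5 exceeded the limit on 2 of the 6. Of the epidermoid markers, SFN differed by 1.02 between EGF and control, called in 2 of 6 fits that left out an array. With gefitinib against EGF alone, SFN differed by −2.09 (in 6 of 6) and DSP by 1.06 (in 1 of 6). KRT5, KRT14, CDH1 and EPCAM were not called. The fibroblast sum, like WNT4 and WNT10A, was highest in the control, and its ranges in the groups with EGF overlapped. The endothelial sum, like FZD7, was lowest with EGF and highest with EGF plus gefitinib. The part of these markers in the results was not tested.

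Other genes of the pathway were read from lists of 91 genes, of which 84 had a probe set. The lists were chosen with earlier results of these data known, so their shares describe these genes and test nothing. With EGF 10 of the 84 were higher and 7 lower than in the control, beside 6.61% higher and 5.3% lower over all probe sets. Without any 1 of the 4 arrays compared, 5 or 6 were higher and 3 or 4 lower. With EGF plus gefitinib against EGF 9 were higher and 10 lower, beside 8.86% and 9.81%, and against the control 4 were higher and 1 lower, beside 2.19% and 1.7%. Of the 84 genes 44 exceeded the limit in a group. Over the whole array 9003 probe sets did so, and 23.5%, 36.0% and 7.61% of these 9003 were called in these comparisons. Over the 84 genes the median differences were 0.03, 0.11 and 0.09, close to the −0.03, 0.05 and 0.01 over all probe sets.

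Of the 14 nuclear co-factors measured, HBP1 moved farthest. HBP1, a repressor that keeps TCF factors off DNA, measured 12.39 and 12.42 in the control, 9.81 and 9.58 with EGF, and 13.39 and 13.62 with EGF plus gefitinib. The groups did not overlap, with EGF lowest and EGF plus gefitinib highest. HBP1 fell by 2.71 ± 0.19 with EGF (limma, adjusted p = 0.000593). It was 3.81 higher with gefitinib than with EGF alone (adjusted p = 0.00015), and 1.10 above the control (adjusted p = 0.0297), the last in 0 of 6 fits that left out an array. CREBBP, an acetyltransferase that beta-catenin recruits, was 1.47 ± 0.19 higher with gefitinib than with EGF alone (adjusted p = 0.00262), and CTBP2, a co-repressor, was lower (−0.94, adjusted p = 0.0228), the latter in 3 of 6 such fits. CREBBP was also 1.08 above the control (adjusted p = 0.0316), in 0 of 6 such fits. TLE1 to TLE5, members of the Groucho family, were not called in any comparison, and TLE1, TLE2 and TLE4 were at or below the limit on every array.

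In the cytoplasm, 3 of 17 measured components were higher with EGF and 0 lower, beside 6.61% and 5.3% of all probe sets. Of the 17, 15 exceeded the limit in a group. Of all probe sets on the array that did so, 23.5% were called in either direction. The 3 components were CSNK1E, GSK3A and CSNK1G2, while the related kinases GSK3B (−0.13), CSNK1A1 (−0.08) and CSNK1D (−0.14) were not called. CSNK1E, a casein kinase that phosphorylates Dishevelled, measured 11.14 and 11.13 in the control, 12.61 and 12.38 with EGF, and 11.35 and 11.12 with EGF plus gefitinib. Its EGF arrays stood above all others. CSNK1E rose by 1.36 ± 0.19 (limma, adjusted p = 0.00579), called in 5 of 6 fits that left out an array, and with gefitinib was below EGF alone (−1.26, adjusted p = 0.00445). GSK3A, a kinase of the destruction complex, rose by 0.80 ± 0.17 (adjusted p = 0.0274) and CSNK1G2, a membrane-bound casein kinase, by 0.68 ± 0.17 (adjusted p = 0.0408). The rises of GSK3A and CSNK1G2 were called in 2 and 0 of 6 such fits. With gefitinib GSK3A and CSNK1G2 were below EGF alone (−1.29 and −1.09, adjusted p = 0.00317 and 0.00518), each called in 6 of 6 such fits. TNKS, which marks AXIN for removal, was at least 1.23-fold higher with gefitinib than with EGF alone (adjusted p = 0.0131). The call of TNKS held in 4 of 6 such fits. CTNNB1, which encodes beta-catenin, averaged 13.03 in the control, 13.36 with EGF and 12.99 with EGF plus gefitinib and was not called (adjusted p = 0.307, 0.206 and 0.91 in the 3 comparisons).

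Of 13 measured genes of planar polarity and the non-canonical branch 3 fell with EGF, beside 5.3% of all probe sets called lower. DAAM1, a formin that binds Dishevelled, measured 11.82 and 11.84 in the control, 10.40 and 10.31 with EGF, and 13.55 and 13.89 with EGF plus gefitinib. The groups did not overlap. DAAM1 fell by 1.48 ± 0.19 with EGF (limma, adjusted p = 0.00463), was 3.36 higher with gefitinib than with EGF alone (adjusted p = 0.000228) and 1.89 above the control (adjusted p = 0.0091), the last called in 3 of 6 fits that left out an array. FUZ, an effector of polarity and cilia, fell by 2.34 ± 0.34 (adjusted p = 0.00679), and VANGL2, a core polarity protein, by 1.29 ± 0.23 (adjusted p = 0.0153) at or below the limit on all arrays. FUZ was 1.49 higher with gefitinib than with EGF alone (adjusted p = 0.022). Its calls held in 5 and 4 of 6 such fits and the VANGL2 call in 2 of 6. INVS, a ciliary switch between the branches, was 0.81 higher (adjusted p = 0.0299, in 0 of 6) and PRICKLE3, below the limit throughout, was lower (−0.90, adjusted p = 0.0243, in 3 of 6) with gefitinib than with EGF alone. Among 5 other receptors ROR1, a receptor of WNT5A, rose by 0.94 ± 0.20 with EGF (adjusted p = 0.0261) and was lower with gefitinib (−0.78, adjusted p = 0.0353), each call in 2 of 6 such fits. PTK7, a co-receptor, was 0.73 higher with gefitinib than with EGF alone (adjusted p = 0.0381, in 1 of 6).

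APCDD1, a membrane inhibitor of Wnt signalling active in hair follicles, was the only called gene of 5 for ligand secretion and removal. It measured 6.5 and 6.86 in the control, 4.32 and 4.54 with EGF, and 6.14 and 5.82 with EGF plus gefitinib. All of these lay at or below the limit, so no fold is given. The fitted differences were −2.25 ± 0.22 with EGF (limma, adjusted p = 0.00176) and 1.55 ± 0.22 with gefitinib added (adjusted p = 0.00355). None of 15 R-spondins and extracellular modulators was called by limma in any comparison, and 14 of them were at or below the limit on all arrays.

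Of 15 measured target genes that are not members, 6 rose and 2 fell with EGF. Over all probe sets 11.9% were called in either direction, and 23.5% of those above the limit in a group. The list was chosen with earlier results of these data known, so its share tests nothing. The targets that rose were FOSL1, PLAUR, SOX9, JUN, MYC and CD44, and FOSL1, JUN and MYC are also textbook early genes of growth factor signalling. FOSL1 rose by 4.01 ± 0.24, PLAUR by 2.95 ± 0.24 and MYC by 1.52 ± 0.17 (limma, adjusted p = 0.000421, 0.00119 and 0.00325). With gefitinib they were lower than with EGF alone, FOSL1 by −4.0, PLAUR by −2.16 and MYC by −0.80 (adjusted p = 0.000258, 0.00159 and 0.0201), the last in 3 of 6 fits that left out an array. The rise of CD44, a cell surface receptor for hyaluronan, was 0.83 (limma, adjusted p = 0.0286, in 2 of 6 fits that left out an array). SOX9, a stem cell factor of hair follicle and gut, measured 9.81 and 9.60 in the control, 12.07 and 12.06 with EGF, and 10.91 and 10.34 with EGF plus gefitinib. The groups did not overlap. SOX9 rose by 2.36 ± 0.23 with EGF (limma, adjusted p = 0.00179) and was lower with gefitinib (−1.44, adjusted p = 0.00582). JUN rose by 1.81 ± 0.22 with EGF (adjusted p = 0.00368) and stood 2.55 above the control with EGF plus gefitinib (adjusted p = 0.0069), the latter in 3 of 6 fits that left out an array. EPHB3, an ephrin receptor of gut crypts, was at least 1.07-fold lower with EGF (adjusted p = 0.0293, in 2 of 6 such fits) and at least 1.25-fold higher with gefitinib than with EGF alone (adjusted p = 0.0106, in 4 of 6). TBX3, a T-box repressor, fell by 0.68 with EGF (adjusted p = 0.0416, in 0 of 6) and was below the control with EGF plus gefitinib (−0.86, adjusted p = 0.0403, in 0 of 6). SP5, ASCL2 and TNFRSF19, targets tied closely to beta-catenin, were at or below the limit on every array and were not called, like AXIN2 and LGR5 among the members.

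**Figure D4:**
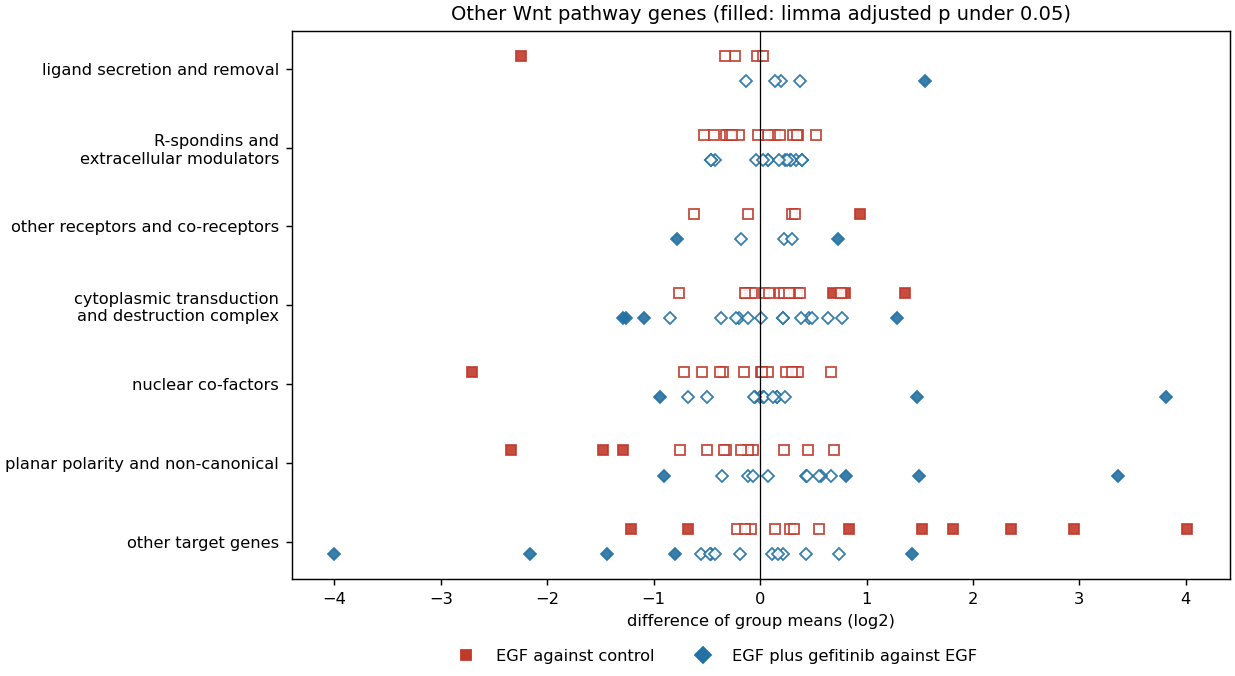
Difference of group means on the log2 scale for the 84 measured Wnt pathway genes that are not members, by list, for EGF against control (squares) and EGF plus gefitinib against EGF (diamonds); filled points were called by limma. HBP1 among the nuclear co-factors and DAAM1 and FUZ among the polarity genes lie to the left with EGF and to the right with gefitinib added, and FOSL1 is the target gene farthest to the right with EGF.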

How the data were processed

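RNA of 6 samples, 2 in each of 3 groups, was measured on 1 array per sample after biotin labelling, per the labels' protocols. The submitters' processing notes name Transcriptome Analysis Console as the software behind the log2 values that the authors deposited. Neither its version nor how background and arrays were adjusted is stated there. That the scale is log2 was inferred from the range, 1.58 to 18.87. The 24351 rows held 2903 control probe sets, which were left out, and 612 of these, the negative controls, set the background limit. Of the 21448 transcript probe sets 17709 had 1 symbol, 0 several and 3739 none in the platform annotation. All were tested unfiltered with limma 3.58.1 (lmFit, eBayes) in R 4.3.3, 3 group means over all 6 arrays, with two-sided p-values (residual degrees of freedom 3, prior 4.22).

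Confidence intervals are at 95%. On simulated arrays for EGF against control with these spreads, log2 changes of 2 and of 1 were given to 100 probe sets each. They were called for 57% and 7%, beside 0.00471% of unchanged ones, among 21448. Far fewer probe sets were changed there than the 2554 called in the data, which makes the adjustment stricter. The shares are therefore not the detection rates of the real comparison. Members given array by array were those called in a comparison or above the limit on both arrays of a group, and the called genes of the other lists were named, some array by array. CTNNB1, GSK3B, CSNK1A1, CSNK1D, the TLE genes, SP5, ASCL2, TNFRSF19 and the ligands named as not called were added after their values were seen. Members, lists and motifs were chosen with earlier results of these data known. Alternatives were the groups compared alone, quantile normalization, centring on the median of probe sets above the limit, a filter on dim probe sets, a trend and robust prior, a replicate block and leaving out each array. No column of values was without a sample. Precision is limited by having 2 arrays per group.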

Additional observations from a re-analysis of the deposited data

How the results depend on the processing

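Over 570 refits of the 16 genes given array by array (FZD1 and FZD7 fell under the filter on dim probe sets), 502 kept direction and side of the threshold, 52 lost the call, 10 gained it and 6 changed sign. The sign changes were of uncalled differences near 0, given here as the range over fits that left out an array. For EGF plus gefitinib against EGF they ran from −0.07 (without EGF plus gefitinib 1) to 0.24 for WNT4 and from −0.14 (without EGF plus gefitinib 2) to 0.27 for AXIN1. Against control they ran from −0.21 to 0.09 (without control 2) for FZD3, from −0.23 (without EGF plus gefitinib 2) to 0.28 for FZD10, and from −0.24 to 0.22 (without control 1; 0.10 without EGF plus gefitinib 1) for WNT7B. Leaving out an array of a group compared leaves that group 1 array, assumed to vary like the others. Leaving out an array of the group not compared gives the same fit as the groups compared alone. Every member had a single probe set, so no other probe set could be tried. At the 99th percentile of the negative controls 8 members exceeded the limit in a group, and at the 75th percentile 27, beside 14.

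Leaving out each array in turn gave, for EGF against control, 726 to 2506 probe sets, 0 to 2 members higher and 3 to 6 lower, and 5 to 9 other pathway genes higher and 3 to 6 lower. For EGF plus gefitinib against EGF it gave 1889 to 3406 probe sets, 3 to 5 members higher and 1 to 2 lower, and 5 to 7 other pathway genes higher and 6 to 10 lower. For EGF plus gefitinib against control it gave 0 to 247 probe sets (3280 to 4589 at an unadjusted p under 0.05), 0 to 2 members higher and 0 to 2 lower, and 0 to 2 other pathway genes higher and 0 lower.

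With the filter on dim probe sets and with the trend and robust prior, calls rose for EGF against control to 3945 and 4241 of all probe sets. For EGF plus gefitinib against EGF these settings called 2 and 3 members lower and 14 and 14 other pathway genes higher, and quantile normalization called 2 members lower. For EGF plus gefitinib against control they called 2538 and 2777 probe sets, 12 and 12 other pathway genes higher and 3 and 3 lower. On the 4 arrays compared alone that comparison called 247 probe sets, 2 other pathway genes higher and 0 lower. With the replicate block it called 333 probe sets, 2 other pathway genes higher and 0 lower. The replicate block called 2040 and 3489 probe sets in the first and second comparison. Nothing in the labels makes the number a shared batch, and the differences between arrays 1 and 2 correlated at −0.04 to 0.02 between groups. Centring each array on the median of probe sets above the limit turned the split for EGF against control from 1417 higher and 1137 lower to 1164 and 1453. The causes of these shifts were not tested.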
